A study of Homo sapiens with 18 samples.

Results

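The p53 target genes described here are 37 genes known to be bound and activated by p53, chosen by symbol from the 23399 genes of the series and followed gene by gene across its 8 groups. The choice was made with earlier results of these data known. The libraries came from U2OS-MycER cells, a human osteosarcoma line transduced with a pBabe-puro retrovirus that encodes Myc fused to the estrogen receptor. MycER stays inactive until 4-hydroxytamoxifen (OHT) is given. siCtrl cells received siRNA against Renilla luciferase and siRAD21 cells a single pool of siRNAs against RAD21, a ring subunit of cohesin. OHT groups were given 400 nM OHT at the same time, and groups without OHT in their name received ethanol. RNA was taken 24 h or 48 h later, with 3 libraries for siCtrl and 3 for siCtrl OHT at 48 h and 2 for every other group. All groups carry MycER and all were transfected, so an effect of OHT itself and one of MycER activation cannot be told apart, and neither can loss of RAD21 and other effects of its siRNA pool. The study's methods call the replicates biological and the labels do not say whether they were separate cultures, so p-values measure the spread between these libraries. In bulk RNA a change in a fraction of the cells and a change in every cell cannot be told apart. Of 8 osteoblast lineage genes, 3 were at or near 0 in every library, COL1A2, SP7 and IBSP (at most 0.487 eRPKM), and 3 were low, BGLAP (0.145 to 1.36), ALPL (1.21 to 3.85) and RUNX2 (1.90 to 8.50), while SPARC was at 60.6 to 86.4 and COL1A1 at 14.5 to 65.8.

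The transcription factor p53 is held low in unstressed cells, mainly because MDM2, itself a p53 target, marks it for degradation. DNA damage, stalled replication and other stress stabilize it, and it then binds its response elements and turns on genes for cell cycle arrest, death, repair, metabolism and its own feedback. U2OS cells are widely used to follow this response.

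A p53 response element is made of 2 copies of a decamer, each with 3 purines, a C, then A or T at both of the next positions, a G and 3 pyrimidines, with no spacer or a short one. The GRCh37 sequence from 3000 bases before to 3000 bases after the start of each gene's canonical transcript was searched for such pairs, with a spacer of at most 13 bases, the C and the G of each decamer intact and at most 2 mismatches elsewhere. The decamer is its own reverse complement, so both strands were covered. A window was at hand for 36 of the 37 genes, since FAS was not searched. A pair without mismatch was found for 5 of the 36 (13.9%), against 99 of 13065 genes with a window (0.758%). With up to 1 mismatch it was 10 (27.8% against 8.56%), and with up to 2 it was 27 (75.0% against 45.2%). The sites below are 4 of those without mismatch, followed by those of CDKN1A, MDM2, EDA2R and GDF15, which are described at length below, and capitals mark the decamers while a spacer is in lower case.
ZMAT3: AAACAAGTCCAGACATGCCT
PLK2: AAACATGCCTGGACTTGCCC
DDB2: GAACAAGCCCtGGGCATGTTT
FBXO22: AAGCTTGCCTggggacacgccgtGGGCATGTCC
CDKN1A: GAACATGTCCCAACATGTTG
MDM2: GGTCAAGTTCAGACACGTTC
EDA2R: GAACATGCCTGGACGTGTCC
GDF15: CATCTTGCCCAGACTTGTCT
Each is written 5′ to 3′ on the strand of its gene, plus except for ZMAT3, PLK2 and EDA2R, from GRCh37, the sequence of hg19. The ZMAT3 site lies at chr3:178787976-178787995 in an intron, 1612 bases after the start. The PLK2 site at chr5:57758101-57758120 is 2197 bases upstream, and the FBXO22 site at chr15:76196469-76196501 is 266 bases into the gene, in an intron. The DDB2 site at chr11:47236530-47236550 sits in the noncoding part of an exon, 15 bases after the start. The CDKN1A site at chr6:36644226-36644245 is 2256 bases upstream of the canonical start, and the MDM2 site at chr12:69202703-69202722 is in an intron, 755 bases after it. The EDA2R site at chrX:65858555-65858574 is in an intron and has 1 mismatch. The GDF15 site at chr19:18496118-18496137 lies 841 bases upstream of the canonical start, inside the interval of the whole gene. It has 2 mismatches, as many as those of CDKN1A and MDM2. A match is a run of letters in a window and no measurement of binding.

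Depth, the total to which the values of a library were scaled, was inferred from the values and was 9647501 to 12678599 reads per library. Reads recovered for the genes made up 99.98 to 99.99% of it, so it is a total of reads on exons. Values are eRPKM, exonic reads scaled to transcript length and to this total, as the authors deposited them. All fits below used log2(eRPKM + 0.5), limma with a mean for each of the 8 groups, and the 14993 genes with a mean of at least 1 eRPKM. A gene rose or fell where its Benjamini-Hochberg (BH) adjusted p was below 0.05 and its log2 fold change past 0.5 in either direction, and a value such as 1.24 ± 0.10 is a log2 fold change with its standard error. RAD21 mRNA was 93.3, 96.9 and 89.02 eRPKM in siCtrl and 11.2 and 11.3 in siRAD21 libraries at 48 h (-2.99 ± 0.047, limma BH-adjusted p = 2.84e-14). MYC, whose endogenous reads and any from the transgene cannot be told apart, fell with OHT in siRAD21 cells at 48 h (-0.72 ± 0.069, limma BH-adjusted p = 9.23e-07). Without OHT, siRAD21 against siCtrl cells gave MYC -0.25 ± 0.069 at 24 h (limma BH-adjusted p = 0.0146) and 0.12 ± 0.063 at 48 h (limma BH-adjusted p = 0.109), neither past the thresholds. The siRAD21 OHT libraries at 48 h differed by less than sampling noise (chi-square per gene 0.982 over 13001 genes, against 1.04 to 3.94 for other pairs within a group) and were counted as 1 sample wherever a mean is given, while both entered the fit. With the pair averaged before the fit, all member counts given below were the same.

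Of the 37 genes, 36 passed the filter and were tested, with at least 2.21 eRPKM in every library. SPATA18, which encodes a protein of mitochondrial quality control, had 0 to 2 reads per library and was not tested. The most abundant per kilobase in siCtrl cells at 48 h was CDKN1A with 77.8 ± 1.59 eRPKM (SD, n = 3), followed by AEN with 67.2 ± 3.26 eRPKM (SD, n = 3) and PLK2 with 64.9 ± 2.59 eRPKM (SD, n = 3). AEN and PLK2 did not differ beyond their spread. At the low end were PERP (8.31 ± 0.277 eRPKM (SD, n = 3)), GDF15 (6.297 ± 0.641 eRPKM (SD, n = 3)) and ACER2 (3.81 ± 0.217 eRPKM (SD, n = 3)). PCR duplicates had been removed, which sets a ceiling on abundant genes. If 1 read per start position and strand was kept, as the values look, the ceiling was 157.7 to 207.3 eRPKM per library, and the highest value of any gene was 174.2. CDKN1A reached 58.02% of that ceiling, PLK2 47.4%, PHLDA3 46.5% and ACER2 6.93%, and changes computed after undoing the ceiling are given where they alter a call.

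RAD21 silencing was followed by higher levels of a large part of these genes. In siRAD21 cells 11 of the 36 rose at 24 h (30.6%, against 5.83% of all genes tested), and 0 fell (against 2.6%). At 48 h 19 rose (52.8%, against 12.6%) and 0 fell (against 11.2%). The median log2 fold change of the 36 was 0.30 at 24 h and 0.57 at 48 h, against 0.002 and -0.014 for all genes. The 11 genes of 24 h were all among the 19 of 48 h, and the 8 that joined were GADD45A, TNFRSF10B, EDA2R, XPC, POLH, RRM2B, SESN1 and ZMAT3. At an unadjusted p below 0.05 in limma, 2 members (MDM2 and PPM1D) were lower at 24 h and 0 at 48 h, and voom on reads recovered from the values called 0 lower at both times.

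The same silencing under active MycER was read in other libraries. In siRAD21 OHT against siCtrl OHT cells 8 members rose at 24 h (22.2%, against 3.74% of all genes) and 0 fell (against 2.73%). At 48 h 18 rose (50%, against 8.47%) and 0 fell (against 7.74%), and limma put 0 members lower at an unadjusted p below 0.05, as voom called 0. The medians were 0.38 and 0.52 (all genes 0.011 and -0.0017). At 24 h, 2 members were lower at an unadjusted p below 0.05 in limma and 0 were called lower by voom. Of the genes that rose at 48 h, 17 were shared with the comparison without OHT (89.5% of 19 and 94.4% of 18), GADD45A and TNFRSF10B being past the thresholds only without OHT and FDXR only with it.

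**Figure D1:**
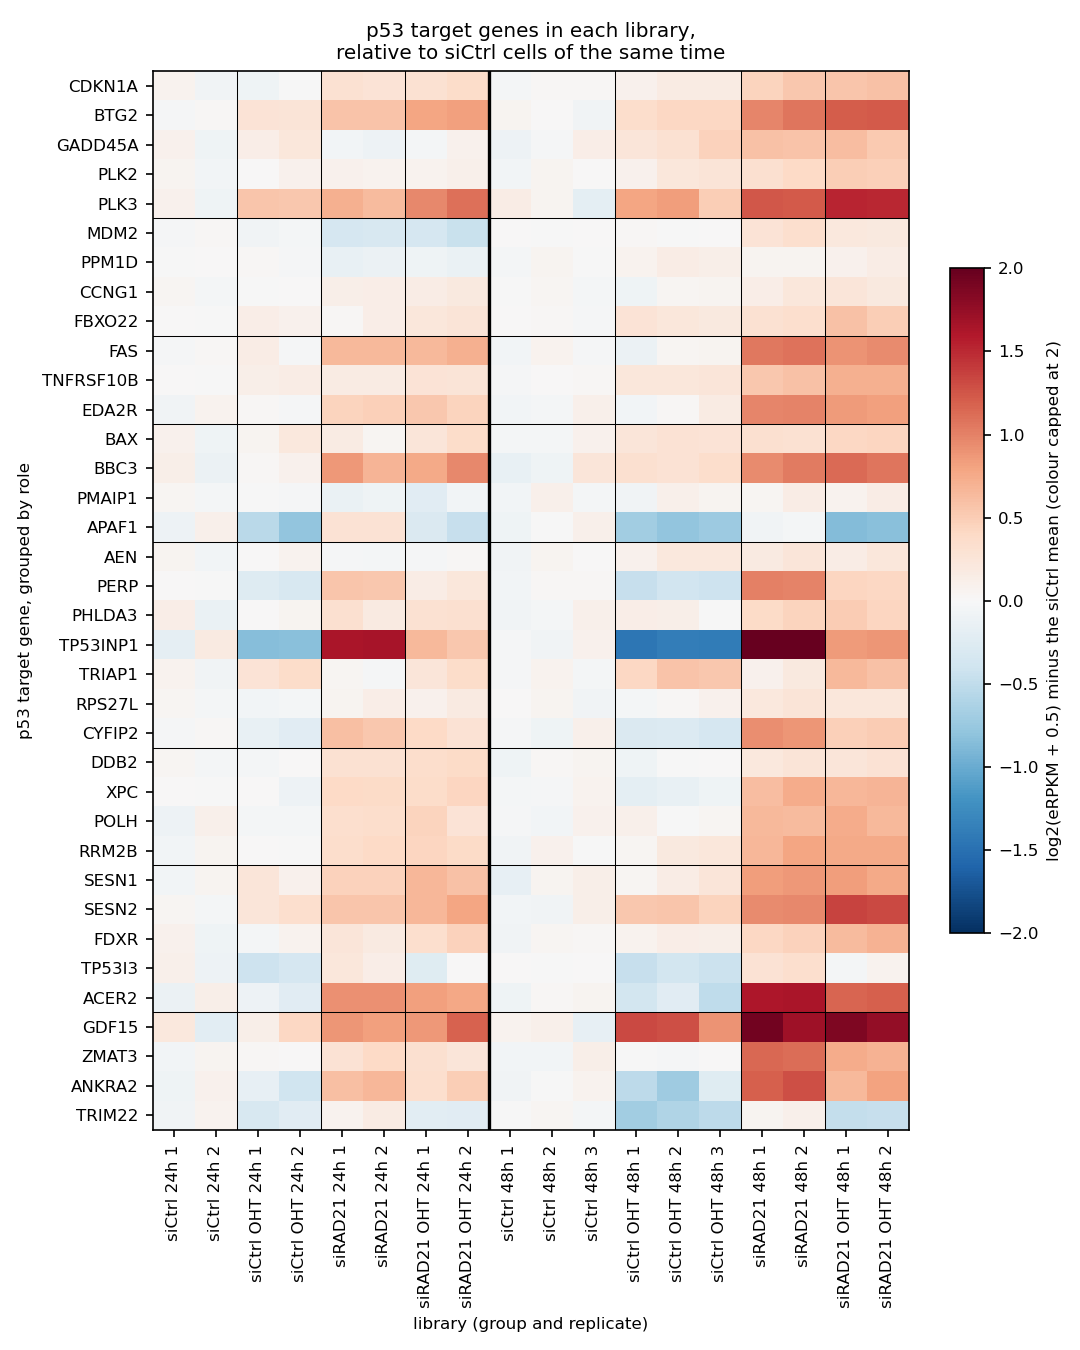
Each column is a library and each row 1 of the 36 tested p53 target genes, grouped by role, and colour is log2(eRPKM + 0.5) minus the mean of the siCtrl libraries of the same time, capped at 2. The siRAD21 and siRAD21 OHT columns at 48 h are the reddest, TP53INP1 changes sign between the siCtrl OHT and siRAD21 columns, and MDM2 is blue at 24 h and pale red at 48 h in siRAD21 cells.

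Among the genes of cell cycle arrest, BTG2 and PLK3 rose in siRAD21 cells at both times and GADD45A at 48 h, while CDKN1A and PLK2 did not pass the thresholds there. CDKN1A (chr6:36644237-36655114, plus strand) encodes p21, the inhibitor of cyclin-dependent kinases that carries out much of the p53 arrest. CDKN1A at 24 h was 74.1 and 66.9 eRPKM in siCtrl, 66.6 and 70.3 in siCtrl OHT, 87.1 and 85.3 in siRAD21 and 87.01 and 90.7 in siRAD21 OHT libraries. CDKN1A at 48 h was 75.95, 78.7 and 78.7 eRPKM in siCtrl, 82.7, 87.4 and 86.9 in siCtrl OHT, 106 and 114 in siRAD21 and 114 and 117 in siRAD21 OHT libraries. Every siRAD21 library, with or without OHT, lay above every siCtrl and siCtrl OHT library of the same time. The differences stayed under the threshold on size in siRAD21 cells (0.29 ± 0.054, limma BH-adjusted p = 0.00119, at 24 h and 0.49 ± 0.049, limma BH-adjusted p = 1.22e-06, at 48 h) and passed it only for siRAD21 OHT against siCtrl cells at 48 h (0.57 ± 0.049, limma BH-adjusted p = 2.06e-07). With the ceiling on duplicates undone, siRAD21 gave 0.72 and siRAD21 OHT against siCtrl OHT 0.61 at 48 h, both past the thresholds. Leaving out siCtrl 48 h replicate 2 or 3 or siRAD21 48 h replicate 1 gave 0.501, 0.501 and 0.545 for siRAD21 at 48 h, each past the thresholds, as was 0.502 with the replicate number as a block, and quantile normalization gave 0.61 there and 0.47, no longer past them, for siRAD21 OHT against siCtrl cells.

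BTG2 (chr1:203274619-203278730, plus strand) encodes an antiproliferative partner of the CCR4-NOT deadenylase. BTG2 at 24 h was 34.1 and 35.3 eRPKM in siCtrl, 41.8 and 41.3 in siCtrl OHT, 51.9 and 51.6 in siRAD21 and 60.1 and 61.7 in siRAD21 OHT libraries. BTG2 at 48 h was 36.3, 35.1 and 33.2 eRPKM in siCtrl, 44.8, 46.8 and 46.6 in siCtrl OHT, 69.1 and 74.04 in siRAD21 and 81.6 and 82.4 in siRAD21 OHT libraries. The 4 groups did not overlap at either time, from siCtrl lowest to siRAD21 OHT highest. In siRAD21 cells the gene rose at 24 h (0.57 ± 0.046) and 48 h (1.03 ± 0.042, limma BH-adjusted p = 2.69e-10), and the OHT effect in siCtrl cells stayed under 0.5 (0.26 ± 0.046 at 24 h and 0.40 ± 0.038 at 48 h).

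PLK3, a stress-responsive polo-like kinase, showed the same order of groups. PLK3 at 24 h was 18.02 and 15.99 eRPKM in siCtrl, 25.1 and 24.9 in siCtrl OHT, 27.97 and 26.6 in siRAD21 and 33.6 and 36.8 in siRAD21 OHT libraries. PLK3 at 48 h was 19.5, 18.2 and 15.4 eRPKM in siCtrl, 30.7, 31.8 and 25.04 in siCtrl OHT, 42.5 and 41.8 in siRAD21 and 51.7 and 50.8 in siRAD21 OHT libraries. No libraries of different groups overlapped within a time. It rose in siRAD21 cells (0.67 ± 0.11 at 24 h and 1.24 ± 0.10, limma BH-adjusted p = 1.61e-07, at 48 h) and in siCtrl OHT cells (0.54 ± 0.11 at 24 h and 0.70 ± 0.090, limma BH-adjusted p = 1.57e-05, at 48 h), the OHT call at 24 h being lost without siCtrl 24 h replicate 2 (0.46). With both treatments against siCtrl cells at 48 h it was 2.86-fold higher. In siRAD21 OHT against siCtrl OHT cells at 24 h it gave 0.48 ± 0.11, and it passed the thresholds without siRAD21 OHT 24 h replicate 1 (0.55), with the ceiling on duplicates undone (0.53) and under quantile normalization (0.50).

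GADD45A encodes a stress sensor that binds PCNA and p21. GADD45A at 24 h was 52.5 and 46.3 eRPKM in siCtrl, 53.8 and 57.8 in siCtrl OHT, 47.3 and 45.9 in siRAD21 and 47.8 and 52.3 in siRAD21 OHT libraries. GADD45A at 48 h was 34.3, 36.05 and 40.2 eRPKM in siCtrl, 43.7, 45.7 and 50.9 in siCtrl OHT, 55.3 and 54.97 in siRAD21 and 56.6 and 52.8 in siRAD21 OHT libraries. The siRAD21 libraries overlapped those of siCtrl cells at 24 h (-0.081 ± 0.085) and lay above them at 48 h (0.58 ± 0.078, limma BH-adjusted p = 2.09e-05), when siCtrl cells gave -0.42 ± 0.078 against 24 h (-0.51, past the thresholds, without siCtrl 24 h replicate 2 and also with the ceiling undone). For siRAD21 OHT against siCtrl cells at 48 h it gave 0.57 ± 0.078, and 0.47, no longer past them, under quantile normalization. PLK2, another polo-like kinase, ranged over 62.2 to 91.8 eRPKM, with 0.36 ± 0.053 in siRAD21 cells at 48 h and 0.49 ± 0.053 for siRAD21 OHT against siCtrl cells there, which passed the thresholds without siCtrl 48 h replicate 2 (0.52), with the ceiling undone (0.61) and under centring on the median (0.50).

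None of the 4 genes that feed back on p53 passed the thresholds in siRAD21 against siCtrl cells, and MDM2 pointed in opposite directions at the 2 times. MDM2 (chr12:69201957-69239324, plus strand) encodes the ubiquitin ligase that degrades p53. MDM2 at 24 h was 43.95 and 45.5 eRPKM in siCtrl, 42.5 and 43.3 in siCtrl OHT, 35.3 and 35.7 in siRAD21 and 35.2 and 32.8 in siRAD21 OHT libraries. MDM2 at 48 h was 50.7, 49.99 and 50.4 eRPKM in siCtrl, 51.1, 50.3 and 50.6 in siCtrl OHT, 60.8 and 63.5 in siRAD21 and 58.1 and 57.7 in siRAD21 OHT libraries. All siRAD21 and siRAD21 OHT libraries were below all others at 24 h and above all others at 48 h, while OHT libraries of siCtrl cells overlapped siCtrl libraries at 48 h. The siRAD21 effect was -0.33 ± 0.039, limma BH-adjusted p = 3.20e-05, at 24 h and 0.30 ± 0.035, limma BH-adjusted p = 6.13e-06, at 48 h, both within 0.5, and the difference between these effects passed the thresholds (0.63 ± 0.053, limma BH-adjusted p = 3.70e-06). At 24 h under OHT it was -0.33 ± 0.039. MDM2 shares at most 133 exon bases with CPM, and reads on bases shared by genes could not be separated, since the library kit does not mark strand.

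PPM1D encodes WIP1, a phosphatase that reverses damage signalling, and ranged over 29.5 to 37.9 eRPKM. CCNG1 encodes cyclin G1, a partner of protein phosphatase 2A, and ranged over 49.04 to 67.7 eRPKM. Neither was past 0.5 in any of the 14 comparisons. FBXO22, the substrate receptor of a ubiquitin ligase, ranged over 22.7 to 35.1 eRPKM and rose for siRAD21 OHT against siCtrl cells at 48 h (0.54 ± 0.043, limma BH-adjusted p = 9.27e-08), a call lost without siRAD21 OHT 48 h replicate 1 (0.49) and under quantile normalization (0.48). It shares 1918 exon bases with NRG4.

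All 3 death receptor genes rose in siRAD21 cells at 48 h. FAS encodes the receptor of FAS ligand. FAS at 24 h was 8.63 and 8.85 eRPKM in siCtrl, 9.69 and 8.61 in siCtrl OHT, 13.98 and 13.98 in siRAD21 and 13.999 and 14.6 in siRAD21 OHT libraries. FAS at 48 h was 8.38, 9.18 and 8.55 eRPKM in siCtrl, 7.995, 8.94 and 9.08 in siCtrl OHT, 18.5 and 19.01 in siRAD21 and 16.6 and 17.2 in siRAD21 OHT libraries. The siRAD21 and siRAD21 OHT libraries lay above all siCtrl and siCtrl OHT libraries at both times, and the siCtrl OHT libraries overlapped those of siCtrl. FAS rose at 24 h (0.65 ± 0.071) and at 48 h (1.07 ± 0.065, limma BH-adjusted p = 9.46e-09), and under OHT at 48 h (0.92 ± 0.065). It shares 380 exon bases with ACTA2.

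EDA2R encodes the receptor of ectodysplasin A2. EDA2R at 24 h was 27.1 and 29.7 eRPKM in siCtrl, 28.9 and 27.9 in siCtrl OHT, 39.03 and 39.9 in siRAD21 and 41.3 and 38.9 in siRAD21 OHT libraries. EDA2R at 48 h was 25.5, 25.9 and 28.5 eRPKM in siCtrl, 25.5, 27.2 and 30.02 in siCtrl OHT, 52.7 and 53.7 in siRAD21 and 48.7 and 47.6 in siRAD21 OHT libraries. The siRAD21 libraries with and without OHT were again above all siCtrl and siCtrl OHT libraries. EDA2R rose at 48 h (0.99 ± 0.064, limma BH-adjusted p = 1.92e-08), and the 24 h value was just under the threshold on size (0.47 ± 0.071), which it passed with the ceiling on duplicates undone (0.54), under quantile normalization (0.55) and without siCtrl 24 h replicate 2 (0.53). At 24 h under OHT it gave 0.49 ± 0.071 against siCtrl OHT cells, with 0.52 and 0.53, past the thresholds, without siCtrl OHT 24 h replicate 1 and siRAD21 OHT 24 h replicate 2, and 0.49 ± 0.071 against siCtrl cells, with 0.56 and 0.53 without siCtrl 24 h replicate 2 and siRAD21 OHT 24 h replicate 2. With the ceiling undone both passed (0.54 and 0.54), as did the first under quantile normalization (0.51) and the second under centring on the median (0.51).

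TNFRSF10B encodes the TRAIL receptor DR5. TNFRSF10B at 24 h was 37.7 and 37.2 eRPKM in siCtrl, 40.5 and 41.4 in siCtrl OHT, 41.9 and 41.9 in siRAD21 and 45.2 and 44.8 in siRAD21 OHT libraries. TNFRSF10B at 48 h was 35.9, 36.9 and 37.3 eRPKM in siCtrl, 43.2, 43.2 and 43.6 in siCtrl OHT, 53.3 and 55.3 in siRAD21 and 60.6 and 60.6 in siRAD21 OHT libraries. The 4 groups did not overlap at 48 h, and siRAD21 OHT was highest. In siRAD21 cells the gene rose at 48 h (0.56 ± 0.031, limma BH-adjusted p = 3.89e-09). It also rose at 48 h with both treatments against siCtrl cells (0.72 ± 0.031), and it reached 0.48 ± 0.031 in siRAD21 OHT against siCtrl OHT cells (0.55, past the thresholds, with the ceiling undone). Of its exon bases 377 are shared with RHOBTB2.

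In the mitochondrial branch of apoptosis BBC3 rose with siRAD21 and APAF1 fell with OHT, and neither BAX nor PMAIP1 passed the thresholds within a time point. BBC3 encodes PUMA, a BH3-only activator of BAX. BBC3 at 24 h was 17.4 and 14.7 eRPKM in siCtrl, 16.2 and 16.9 in siCtrl OHT, 29.7 and 25.96 in siRAD21 and 27.3 and 31.6 in siRAD21 OHT libraries. BBC3 at 48 h was 17.1, 17.9 and 22.5 eRPKM in siCtrl, 23.9, 23.4 and 24.5 in siCtrl OHT, 37.01 and 39.9 in siRAD21 and 42.4 and 40.7 in siRAD21 OHT libraries. At both times siRAD21 and siRAD21 OHT libraries were above all siCtrl and siCtrl OHT libraries. The rise was 0.78 ± 0.11, limma BH-adjusted p = 1.91e-04, at 24 h and 0.99 ± 0.10, limma BH-adjusted p = 1.98e-06, at 48 h.

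APAF1 (chr12:99039068-99129211, plus strand) encodes the scaffold of the apoptosome. APAF1 at 24 h was 10.5 and 12.3 eRPKM in siCtrl, 7.696 and 6.37 in siCtrl OHT, 13.9 and 14.01 in siRAD21 and 9.26 and 8.12 in siRAD21 OHT libraries. APAF1 at 48 h was 8.86, 9.45 and 10.2 eRPKM in siCtrl, 5.65, 5.26 and 5.53 in siCtrl OHT, 8.97 and 9.19 in siRAD21 and 4.97 and 5.099 in siRAD21 OHT libraries. All OHT libraries lay below all libraries without OHT at each time, and at 48 h the siRAD21 libraries overlapped those of siCtrl. APAF1 fell with OHT in siCtrl cells (-0.66 ± 0.097 at 24 h and -0.74 ± 0.079, limma BH-adjusted p = 3.22e-06, at 48 h) and in siRAD21 cells (-0.66 ± 0.097 at 24 h and -0.79 ± 0.097, limma BH-adjusted p = 9.33e-06, at 48 h). It was the only member below the threshold for siRAD21 OHT against siCtrl cells at 48 h (-0.85 ± 0.089), and it shares at most 750 exon bases with ANKS1B.

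BAX, the pore former of the outer mitochondrial membrane, ranged over 46.1 to 65.1 eRPKM, with 0.31 ± 0.066 for siRAD21 at 48 h. PMAIP1, which encodes the BH3-only protein NOXA, was at 38.6 and 36.8 eRPKM in siCtrl libraries at 24 h and 58.6, 65.1 and 59.4 at 48 h, and rose with time (0.69 ± 0.065, limma BH-adjusted p = 3.00e-06). Its siRAD21 effect was -0.11 ± 0.071 at 24 h and 0.090 ± 0.065 at 48 h.

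Of the other genes of death and survival, TP53INP1 had the highest log2 fold changes of all members with siRAD21 and the lowest with OHT. TP53INP1 encodes a stress-induced nuclear protein that promotes death and autophagy. TP53INP1 at 24 h was 3.82 and 5.08 eRPKM in siCtrl, 2.21 and 2.23 in siCtrl OHT, 14.6 and 14.8 in siRAD21 and 7.18 and 6.64 in siRAD21 OHT libraries. TP53INP1 at 48 h was 11.4, 11.03 and 12.4 eRPKM in siCtrl, 3.94, 4.16 and 4.09 in siCtrl OHT, 47.6 and 48.6 in siRAD21 and 21.3 and 21.8 in siRAD21 OHT libraries. Within each time no 2 groups overlapped, and siCtrl OHT was lowest and siRAD21 highest. It rose in siRAD21 cells (1.63 ± 0.095, limma BH-adjusted p = 5.83e-08, at 24 h and 2.00 ± 0.087, limma BH-adjusted p = 4.53e-10, at 48 h, a 4.01-fold change). It fell with OHT in siCtrl cells (-0.85 ± 0.095 at 24 h and -1.41 ± 0.077, limma BH-adjusted p = 6.24e-09, at 48 h) and in siRAD21 cells (-1.04 ± 0.095 at 24 h and -1.14 ± 0.095, limma BH-adjusted p = 2.31e-07, at 48 h). The interaction of siRNA and OHT did not pass the thresholds (-0.19 ± 0.13, limma BH-adjusted p = 0.917, at 24 h and 0.27 ± 0.12, limma BH-adjusted p = 0.148, at 48 h). With both treatments it was still higher than in siCtrl cells (0.59 ± 0.095 at 24 h and 0.86 ± 0.087 at 48 h), the first call being lost without siCtrl 24 h replicate 1 (0.41). It shares 225 exon bases with NDUFAF6.

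PERP, a membrane protein of desmosomes needed for p53-dependent death in some cells, also moved in both directions. PERP at 24 h was 10.98 and 10.8 eRPKM in siCtrl, 9.05 and 8.65 in siCtrl OHT, 16.2 and 16.1 in siRAD21 and 12.1 and 12.8 in siRAD21 OHT libraries. PERP at 48 h was 7.99, 8.45 and 8.49 eRPKM in siCtrl, 5.92, 6.24 and 6.08 in siCtrl OHT, 17.1 and 17.1 in siRAD21 and 11.3 and 11.2 in siRAD21 OHT libraries. Within each time no groups overlapped, and siRAD21 was highest and siCtrl OHT lowest. PERP rose in siRAD21 cells (0.55 ± 0.054 at 24 h and 1.00 ± 0.049, limma BH-adjusted p = 1.41e-09, at 48 h) and fell with OHT in siRAD21 cells at 48 h (-0.58 ± 0.054, limma BH-adjusted p = 6.19e-07), with -0.42 ± 0.044 in siCtrl cells. Under OHT at 24 h it gave 0.47 ± 0.054 with siRAD21, and 0.51, past the thresholds, without siCtrl OHT 24 h replicate 1 or siRAD21 OHT 24 h replicate 1.

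CYFIP2, a subunit of the actin-regulating WAVE complex, had a like order. CYFIP2 at 24 h was 11.8 and 12.1 eRPKM in siCtrl, 10.7 and 10.2 in siCtrl OHT, 18.4 and 17.6 in siRAD21 and 15.8 and 14.8 in siRAD21 OHT libraries. CYFIP2 at 48 h was 13.8, 13.2 and 15.1 eRPKM in siCtrl, 11.3, 11.4 and 11.003 in siCtrl OHT, 27.1 and 26.3 in siRAD21 and 19.7 and 20.2 in siRAD21 OHT libraries. Here too siCtrl OHT was lowest, siRAD21 highest and no groups overlapped within a time. In siRAD21 cells the gene rose (0.57 ± 0.062 at 24 h and 0.91 ± 0.057, limma BH-adjusted p = 1.25e-08, at 48 h), and the OHT effect at 48 h was -0.30 ± 0.051 in siCtrl and -0.41 ± 0.062 in siRAD21 cells (-0.50, past the thresholds, under quantile normalization). In siRAD21 OHT against siCtrl OHT cells at 24 h (0.53 ± 0.062) the call was lost without siCtrl OHT 24 h replicate 2 (0.49) or siRAD21 OHT 24 h replicate 1 (0.48).

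TRIAP1, a small mitochondrial protein that restrains the apoptosome, responded to OHT. TRIAP1 at 24 h was 64.1 and 58.6 eRPKM in siCtrl, 73.8 and 79.002 in siCtrl OHT, 63.1 and 60.2 in siRAD21 and 72.8 and 79.1 in siRAD21 OHT libraries. TRIAP1 at 48 h was 50.1, 53.8 and 49.7 eRPKM in siCtrl, 68.3, 76.6 and 75.004 in siCtrl OHT, 54.7 and 58.5 in siRAD21 and 80.2 and 76.8 in siRAD21 OHT libraries. OHT libraries lay above libraries without OHT at each time. The rise in siCtrl OHT cells at 48 h (0.51 ± 0.056, limma BH-adjusted p = 3.59e-06) was close to the threshold on size and was lost, with 0.48 to 0.50, on leaving out siCtrl 48 h replicate 1 or 3 or siCtrl OHT 48 h replicate 2 or 3, and under quantile normalization (0.40). In siRAD21 cells OHT gave 0.47 ± 0.068, and 0.52, past the thresholds, without siRAD21 48 h replicate 2, as did undoing the ceiling (0.55).

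AEN, an exonuclease that amplifies apoptosis, ranged over 63.7 to 79.7 eRPKM, PHLDA3, a repressor of Akt, over 49.7 to 75.6 eRPKM, and RPS27L, a ribosomal protein paralog, over 35.9 to 54.2 eRPKM. None of them passed the thresholds in any comparison. PHLDA3 was closest, with 0.41 ± 0.074 for siRAD21 and 0.47 ± 0.074 for siRAD21 OHT against siCtrl cells at 48 h, which became 0.51 and 0.55, past the thresholds, once the ceiling on duplicates was undone, the former also under quantile normalization (0.53). Leaving out siCtrl 48 h replicate 3 or siRAD21 OHT 48 h replicate 2 gave 0.52 and 0.50 in the latter comparison, both past the thresholds.

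**Figure D2:**
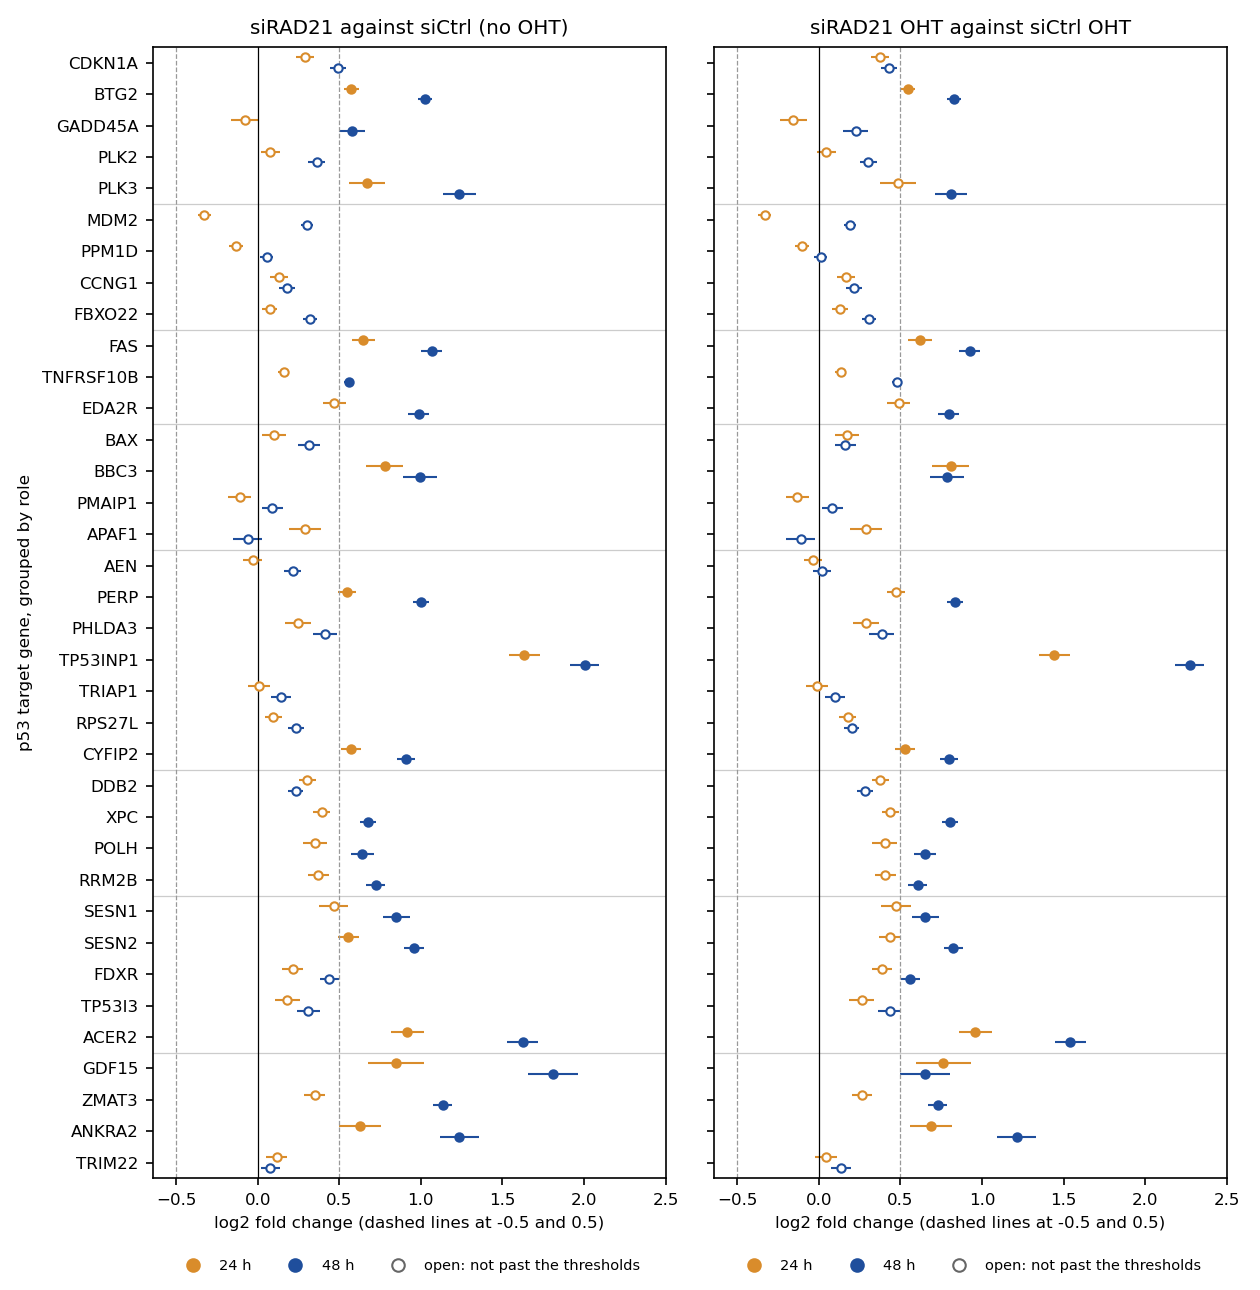
Log2 fold change with its standard error for each of the 36 tested genes, for siRAD21 against siCtrl (left) and siRAD21 OHT against siCtrl OHT (right), at 24 h (orange) and 48 h (blue), where filled points passed the thresholds. Filled blue points number 19 on the left and 18 on the right, all to the right of 0.5, and TP53INP1, ACER2 and GDF15 lie farthest right on the left-hand side.

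In DNA repair and nucleotide supply, 3 of 4 genes rose in siRAD21 cells at 48 h and 0 at 24 h, when the values of all 4 lay between 0.30 and 0.39. At 24 h the limma BH-adjusted p ran from 1.10e-04 (XPC) to 0.00319 (POLH), so all 4 missed the threshold on size alone, and voom called none. XPC, which recognizes lesions for nucleotide excision repair, and POLH, the translesion DNA polymerase eta, rose with a similar size. XPC at 24 h was 30.4 and 30.4 eRPKM in siCtrl, 30.7 and 28.5 in siCtrl OHT, 40.1 and 39.98 in siRAD21 and 39.4 and 40.97 in siRAD21 OHT libraries. XPC at 48 h was 32.4, 32.5 and 34.8 eRPKM in siCtrl, 29.1, 30.1 and 31.3 in siCtrl OHT, 51.1 and 55.7 in siRAD21 and 52.8 and 53.3 in siRAD21 OHT libraries. It rose in siRAD21 cells at 48 h (0.67 ± 0.049, limma BH-adjusted p = 5.41e-08) and under OHT (0.80 ± 0.049), and no siRAD21 library overlapped a siCtrl or siCtrl OHT library at either time.

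POLH at 24 h was 16.02 and 18.3 eRPKM in siCtrl, 16.6 and 16.7 in siCtrl OHT, 21.8 and 22.1 in siRAD21 and 23.6 and 20.8 in siRAD21 OHT libraries. POLH at 48 h was 11.6, 11.4 and 12.7 eRPKM in siCtrl, 12.8, 11.8 and 12.3 in siCtrl OHT, 18.9 and 18.7 in siRAD21 and 20.2 and 18.96 in siRAD21 OHT libraries. The siRAD21 and siRAD21 OHT libraries were higher than all others of their time. The rise at 48 h (0.64 ± 0.068, limma BH-adjusted p = 2.14e-06) went with a level in siCtrl cells that was lower at 48 h than at 24 h (-0.51 ± 0.068, limma BH-adjusted p = 5.06e-05), a fall lost without siCtrl 24 h replicate 2 (0.42 in size) or siCtrl 48 h replicate 1 or 2 (0.50 and 0.48), under quantile normalization and centring on the median (0.42 in size in each) and with a pseudocount of 1 (0.49 in size). POLH shares 261 exon bases with GTPBP2.

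RRM2B encodes p53R2, the ribonucleotide reductase subunit that supplies deoxynucleotides outside S phase. RRM2B at 24 h was 34.9 and 37.4 eRPKM in siCtrl, 36.2 and 35.999 in siCtrl OHT, 46.2 and 47.6 in siRAD21 and 48.7 and 47.4 in siRAD21 OHT libraries. RRM2B at 48 h was 45.2, 50.3 and 47.1 eRPKM in siCtrl, 48.8, 54.4 and 55.6 in siCtrl OHT, 75.4 and 82.3 in siRAD21 and 80.9 and 80.3 in siRAD21 OHT libraries. The siRAD21 groups lay above the siCtrl groups at both times, and OHT libraries overlapped those without OHT. In siRAD21 cells the gene rose at 48 h (0.72 ± 0.059, limma BH-adjusted p = 1.67e-07). DDB2, the damage-binding subunit that precedes XPC and has the site without mismatch shown above, ranged over 38.1 to 51.4 eRPKM, with 0.30 ± 0.053 at 24 h and 0.23 ± 0.048 at 48 h.

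Among the genes of metabolism and redox, ACER2, SESN1 and SESN2 rose in siRAD21 cells at 48 h. ACER2 encodes the Golgi alkaline ceramidase. ACER2 at 24 h was 3.28 and 3.98 eRPKM in siCtrl, 3.34 and 3.03 in siCtrl OHT, 7.295 and 7.26 in siRAD21 and 6.79 and 6.52 in siRAD21 OHT libraries. ACER2 at 48 h was 3.57, 3.87 and 3.99 eRPKM in siCtrl, 2.84, 3.19 and 2.52 in siCtrl OHT, 12.7 and 12.9 in siRAD21 and 9.13 and 9.32 in siRAD21 OHT libraries. The siRAD21 libraries were highest, the siRAD21 OHT libraries next, and neither overlapped siCtrl or siCtrl OHT. ACER2 rose at 24 h (0.92 ± 0.10, limma BH-adjusted p = 1.94e-05) and at 48 h (1.62 ± 0.093, limma BH-adjusted p = 5.72e-09, 3.08-fold), and under OHT (1.54 ± 0.093 at 48 h).

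SESN2 and SESN1 encode sestrins, which inhibit mTORC1 under stress. SESN2 at 24 h was 32.2 and 30.2 eRPKM in siCtrl, 37.1 and 39.5 in siCtrl OHT, 45.9 and 46.2 in siRAD21 and 49.7 and 54.1 in siRAD21 OHT libraries. SESN2 at 48 h was 23.01, 22.8 and 25.96 eRPKM in siCtrl, 34.8, 35.4 and 32.7 in siCtrl OHT, 46.5 and 47.2 in siRAD21 and 61.6 and 60.5 in siRAD21 OHT libraries. At 48 h the 4 groups did not overlap, with siRAD21 OHT highest. SESN2 rose with siRAD21 (0.56 ± 0.064 at 24 h and 0.96 ± 0.059, limma BH-adjusted p = 1.04e-08, at 48 h) and with OHT in siCtrl cells at 48 h (0.51 ± 0.052, limma BH-adjusted p = 2.04e-06), the latter lost, with 0.48 to 0.49, without siCtrl 48 h replicate 1 or 2 or siCtrl OHT 48 h replicate 2, and under quantile normalization (0.42). Both treatments together gave 1.34 ± 0.059 against siCtrl cells, a 2.53-fold change.

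SESN1 at 24 h was 10.04 and 10.9 eRPKM in siCtrl, 12.4 and 11.1 in siCtrl OHT, 14.6 and 14.7 in siRAD21 and 16.96 and 16.01 in siRAD21 OHT libraries. SESN1 at 48 h was 9.72, 11.5 and 11.9 eRPKM in siCtrl, 11.3, 12.2 and 13.2 in siCtrl OHT, 19.96 and 20.5 in siRAD21 and 20.1 and 18.9 in siRAD21 OHT libraries. The siRAD21 groups lay above the siCtrl groups. SESN1 rose at 48 h (0.85 ± 0.083, limma BH-adjusted p = 9.66e-07), and its 24 h value of 0.47 ± 0.091 passed 0.5 without siCtrl 24 h replicate 2 (0.52). Under OHT at 24 h it was 0.47 ± 0.091, and 0.55 and 0.51, past the thresholds, without siCtrl OHT 24 h replicate 1 and siRAD21 OHT 24 h replicate 2.

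FDXR encodes ferredoxin reductase of the mitochondrial electron chain for steroid and iron-sulfur synthesis. FDXR at 24 h was 50.7 and 44.7 eRPKM in siCtrl, 46.2 and 50.1 in siCtrl OHT, 56.6 and 54.1 in siRAD21 and 60.5 and 65.8 in siRAD21 OHT libraries. FDXR at 48 h was 43.5, 47.1 and 46.5 eRPKM in siCtrl, 47.96, 50.2 and 49.4 in siCtrl OHT, 61.03 and 63.3 in siRAD21 and 71.2 and 74.3 in siRAD21 OHT libraries. The siRAD21 OHT libraries were highest at both times. It rose in siRAD21 OHT against siCtrl OHT cells at 48 h (0.56 ± 0.058, limma BH-adjusted p = 3.23e-06), with 0.44 ± 0.058 in siRAD21 cells, which was 0.53 with the ceiling on duplicates undone and 0.55 under quantile normalization, both past the thresholds. TP53I3, a quinone oxidoreductase, ranged over 25.1 to 43.7 eRPKM and was past 0.5 in no comparison, with 0.31 ± 0.070 for siRAD21 and -0.42 ± 0.062 for OHT at 48 h.

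GDF15 (chr19:18485541-18499986, plus strand) encodes a secreted stress cytokine. GDF15 at 24 h was 6.55 and 4.798 eRPKM in siCtrl, 6.095 and 7.62 in siCtrl OHT, 10.8 and 10.2 in siRAD21 and 10.6 and 13.4 in siRAD21 OHT libraries. GDF15 at 48 h was 6.59, 6.74 and 5.56 eRPKM in siCtrl, 16.4, 15.98 and 12.1 in siCtrl OHT, 25.3 and 21.4 in siRAD21 and 24.3 and 22.5 in siRAD21 OHT libraries. At 48 h all libraries given OHT, siRAD21 or both lay above the siCtrl libraries, and siRAD21 and siRAD21 OHT overlapped. It rose with siRAD21 at 24 h (0.85 ± 0.17, limma BH-adjusted p = 0.00207) and at 48 h (1.81 ± 0.15, limma BH-adjusted p = 2.63e-07, 3.51-fold), and with OHT in siCtrl cells at 48 h (1.16 ± 0.14, limma BH-adjusted p = 8.35e-06). OHT in siRAD21 cells gave 0.0059 ± 0.17 at 48 h. Both treatments gave 1.82 ± 0.15 against siCtrl cells, and the interaction passed the thresholds (-1.16 ± 0.22, limma BH-adjusted p = 0.00271). The rise in siRAD21 OHT against siCtrl OHT cells at 24 h (0.76 ± 0.17) was lost without siCtrl OHT 24 h replicate 1 (0.61) or siRAD21 OHT 24 h replicate 2 (0.60), and GDF15 rested on 72 to 331 reads per library.

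ZMAT3, a zinc finger protein that binds RNA and regulates splicing, has a consensus site without mismatch in an intron, shown above. ZMAT3 at 24 h was 9.103 and 9.84 eRPKM in siCtrl, 9.602 and 9.51 in siCtrl OHT, 11.7 and 12.7 in siRAD21 and 11.9 and 11.2 in siRAD21 OHT libraries. ZMAT3 at 48 h was 16.2, 16.3 and 18.4 eRPKM in siCtrl, 16.9, 16.8 and 17.02 in siCtrl OHT, 38.4 and 37.4 in siRAD21 and 28.8 and 27.8 in siRAD21 OHT libraries. At 48 h siRAD21 was highest, siRAD21 OHT next and siCtrl and siCtrl OHT overlapped. ZMAT3 rose in siRAD21 cells at 48 h (1.14 ± 0.058, limma BH-adjusted p = 2.15e-09), with 0.35 ± 0.064 at 24 h, and it rose with time in siCtrl cells (0.81 ± 0.058, limma BH-adjusted p = 2.81e-07). OHT in siRAD21 cells at 48 h gave -0.41 ± 0.064, and -0.54, past the thresholds, under quantile normalization.

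ANKRA2, an ankyrin repeat protein that binds class IIa histone deacetylases, and TRIM22, an interferon-induced ubiquitin ligase, differed in their response. ANKRA2 at 24 h was 6.15 and 7.03 eRPKM in siCtrl, 5.84 and 4.87 in siCtrl OHT, 10.2 and 10.7 in siRAD21 and 8.41 and 9.42 in siRAD21 OHT libraries. ANKRA2 at 48 h was 8.08, 8.41 and 8.94 eRPKM in siCtrl, 5.73, 4.999 and 7.11 in siCtrl OHT, 19.97 and 21.3 in siRAD21 and 13.5 and 15.1 in siRAD21 OHT libraries. The siRAD21 libraries were highest at both times. ANKRA2 rose in siRAD21 cells (0.63 ± 0.13 at 24 h and 1.24 ± 0.12, limma BH-adjusted p = 7.44e-07, at 48 h) and fell with OHT in siRAD21 cells at 48 h (-0.51 ± 0.13, limma BH-adjusted p = 0.00335), a fall lost without siRAD21 48 h replicate 2 (0.47 in size) or siRAD21 OHT 48 h replicate 1 (0.44 in size), and under centring on the median (0.49 in size). In siCtrl cells OHT gave -0.49 ± 0.11 at 48 h, which passed the thresholds, with 0.52 and 0.62 in size, without siCtrl 48 h replicate 1 and siCtrl OHT 48 h replicate 3, and also with a pseudocount of 0.1 and by voom (0.52 and 0.53 in size). It shares 225 exon bases with UTP15.

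TRIM22 at 24 h was 14.6 and 16.3 eRPKM in siCtrl, 12.3 and 13.1 in siCtrl OHT, 16.2 and 17.3 in siRAD21 and 13.2 and 13.03 in siRAD21 OHT libraries. TRIM22 at 48 h was 19.8, 20.4 and 19.3 eRPKM in siCtrl, 12.1, 12.96 and 13.6 in siCtrl OHT, 20.7 and 21.2 in siRAD21 and 14.1 and 14.3 in siRAD21 OHT libraries. OHT libraries lay below libraries without OHT at each time. It fell with OHT at 48 h in siCtrl cells (-0.60 ± 0.053, limma BH-adjusted p = 5.07e-07) and in siRAD21 cells (-0.54 ± 0.065, limma BH-adjusted p = 7.53e-06), and siRAD21 alone gave 0.078 ± 0.060. TRIM22 shares 642 exon bases with OR56B1.

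**Figure D3:**
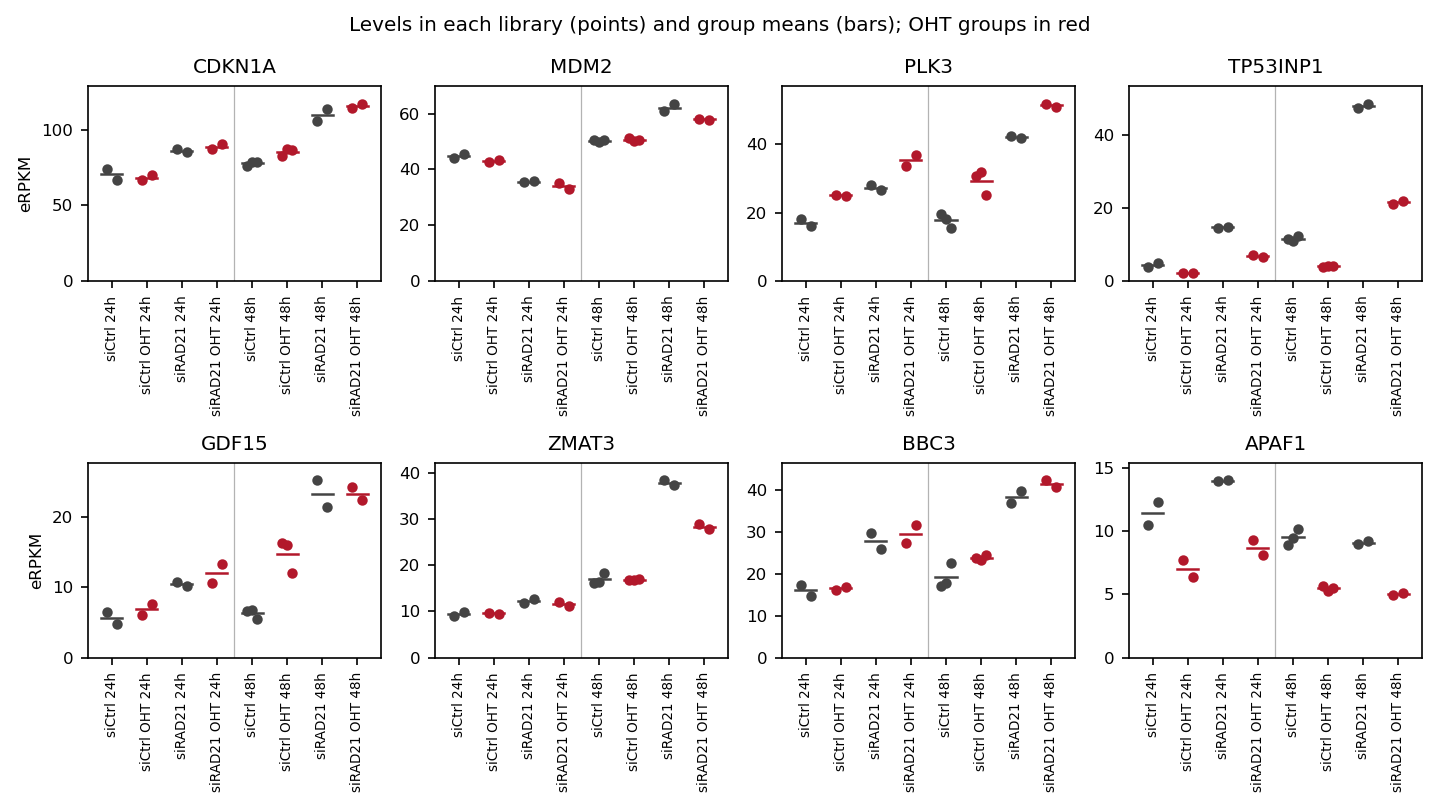
eRPKM of 8 members in each library (points) with the group mean (bar), siCtrl and siRAD21 groups without OHT in grey and OHT groups in red, 24 h left and 48 h right of the line. CDKN1A, PLK3 and BBC3 are higher in siRAD21 groups at both times, MDM2 reverses between the times, GDF15 at 48 h is at a like level in siRAD21 cells with and without OHT, and APAF1 is lower in OHT groups.

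OHT moved few of these genes past the thresholds in siCtrl cells. In siCtrl OHT against siCtrl cells, PLK3 rose and APAF1 and TP53INP1 fell at 24 h, 1 higher (2.78%, against 3.68% of all genes) and 2 lower (5.56%, against 5.1%). At 48 h 4 rose, PLK3, TRIAP1, SESN2 and GDF15 (11.1%, against 7.78%), and 3 fell, APAF1, TP53INP1 and TRIM22 (8.33%, against 10.1%). The medians of 0.0019 and 0.064 were close to those of all genes (-0.0085 and -0.013). These shares are near the background in both directions.

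In siRAD21 cells OHT raised 0 members at 24 h (against 4.29% of all genes) and 0 at 48 h (against 12.4%), by limma and by voom, with 8 and 8 higher at an unadjusted p below 0.05. APAF1 and TP53INP1 fell at 24 h (5.56%, against 7.62%), and APAF1, PERP, TP53INP1, ANKRA2 and TRIM22 at 48 h (13.9%, against 16.2%). The medians were 0.035 and 0.014, against -0.013 and -0.016 for all genes. The siCtrl and siRAD21 comparisons share no library, and APAF1 and TP53INP1 fell in all 4 of them.

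**Figure D4:**
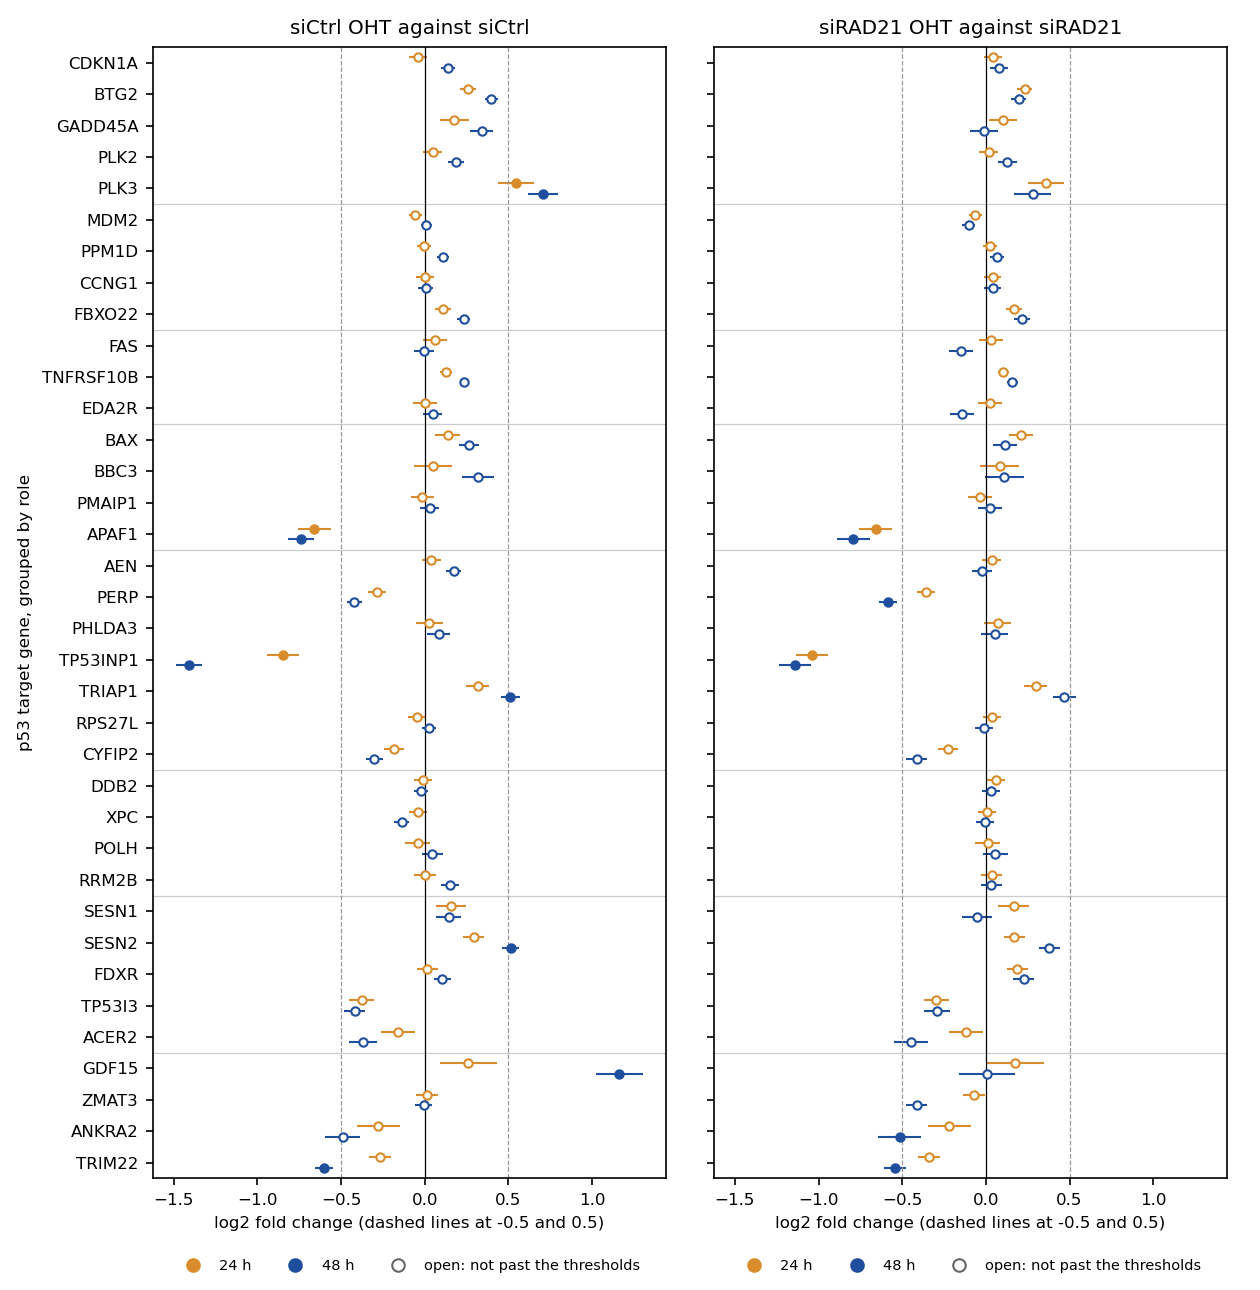
Log2 fold change with its standard error for OHT in siCtrl cells (left) and in siRAD21 cells (right), at 24 h (orange) and 48 h (blue), filled where past the thresholds. Most points lie within 0.5 of 0, TP53INP1 and APAF1 are filled and negative on both sides, and GDF15 at 48 h is 1.16 on the left and 0.006 on the right.

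Cells with both treatments were set against untreated cells to read the sum of the changes. These comparisons share siCtrl libraries with those above. At 24 h 9 members rose for siRAD21 OHT against siCtrl cells (25%, against 6.62% of all genes) and 0 fell (against 6.51%), with 4 lower at an unadjusted p below 0.05 in limma and 0 called lower by voom. At 48 h 21 rose (58.3%, against 13.1%) and 1, APAF1, fell (2.78%, against 14.9%). CDKN1A, FBXO22, TRIAP1 and FDXR were past the thresholds at 48 h here and not in siRAD21 cells, while PERP and CYFIP2 were past them in siRAD21 cells and reached 0.42 ± 0.049 and 0.49 ± 0.057 here. CYFIP2 was 0.51, and past the thresholds, without siRAD21 OHT 48 h replicate 1 and 0.55 without siCtrl 48 h replicate 3, and with the replicate number as a block it was 0.51 and PLK2 0.51, both past them. CYFIP2 also passed them with the ceiling undone (0.51), with a pseudocount of 0.1, under centring on the median and by voom (each 0.51).

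Whether OHT changed the siRAD21 effect was tested as an interaction. At 24 h limma called 0 members and 0 genes in either direction (0% higher and 0% lower of all genes), with 0 members and 906 genes at an unadjusted p below 0.05, and voom called 0 members and 19 genes. At 48 h 0 members were higher (against 3.33%) and 1, GDF15, was lower (2.78%, against 3.97%). There, 9 of the 36 members and 4749 of the 14993 genes tested had an unadjusted p below 0.05 in limma. The share of members was thus not above that of all genes. Of these 9 members, 1 was higher and 8 were lower, among them ZMAT3 (-0.41 ± 0.082, limma BH-adjusted p = 0.00417), whose size was under 0.5. Of the 36, 28 had a negative interaction at 48 h, with a median of -0.070 against 0.016 for all genes. Without siCtrl OHT 48 h replicate 3, PLK3 (-0.43 ± 0.14) joined with -0.53, and quantile normalization called PLK3 (-0.53) and ZMAT3 (-0.54) beside GDF15.

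The siRAD21 effect, siRAD21 minus siCtrl, was higher at 48 h than at 24 h for 8 members (22.2%, against 3.85% of all genes) and lower for 0 (against 6.86%, with 1 at an unadjusted p below 0.05 in limma, APAF1, and 0 by voom). They were GADD45A, PLK3, MDM2, EDA2R, ACER2, GDF15, ZMAT3 and ANKRA2, from 0.52 ± 0.096 for EDA2R to 0.96 ± 0.23 for GDF15. The median difference was 0.29, against -0.0089 for all genes. Leaving out single libraries took the call from PLK3 (0.47 to 0.53 without siCtrl 24 h replicate 1, siCtrl 48 h replicate 3 or siRAD21 24 h replicate 2), EDA2R (0.45 to 0.50 without siCtrl 24 h replicate 2 or siCtrl 48 h replicate 1 or 2) and ANKRA2 (0.52 to 0.64 without siCtrl 24 h replicate 2, siRAD21 24 h replicate 1 or 2 or siRAD21 48 h replicate 2), and with the replicate number as a block PLK3 was 0.47 and no longer past the thresholds. BTG2 (0.45 ± 0.063) passed them without siRAD21 48 h replicate 1 (0.50) and with the ceiling undone (0.54), and TP53INP1 (0.37 ± 0.13) without siCtrl 24 h replicate 1 (0.55). In siCtrl cells themselves 3 members were higher at 48 h than at 24 h, PMAIP1, TP53INP1 and ZMAT3 (8.33%, against 5.53%), TP53INP1 most (1.30 ± 0.087, limma BH-adjusted p = 1.44e-07), and POLH fell (2.78%, against 6.91%).

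MDM4, the MDM2 relative that masks the activation domain of p53, gave 0.40 ± 0.10 with siRAD21 and -0.083 ± 0.090 with OHT at 48 h, past the thresholds in no comparison.

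Of 29 regulators of p53, 27 were tested. In siRAD21 cells at 48 h 3 rose, HIPK2, BCL6 and PPP1R13L (11.1%, against 12.6% of all genes), and 4 fell, CHEK1, TRIM24, TP73 and ZNF385A (14.8%, against 11.2%), with a median of -0.024 (all genes -0.014). These shares are near the background. PPP1R13L, which encodes the p53 inhibitor iASPP, rose (1.05 ± 0.16, limma BH-adjusted p = 7.85e-05), and the zinc finger partner of p53 ZNF385A fell (-1.22 ± 0.13, limma BH-adjusted p = 3.06e-06). With OHT in siCtrl cells at 48 h the checkpoint kinase gene CHEK2 rose (0.71 ± 0.043, limma BH-adjusted p = 1.33e-08), and the gene of the transcriptional repressor BCL6 fell (-1.11 ± 0.091, limma BH-adjusted p = 2.39e-07).

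A list of 78 other p53 targets, 73 of them tested, had 16 higher (21.9%, against 5.83% of all genes) and 2 lower (2.74%, against 2.6%) in siRAD21 cells at 24 h. At 48 h 32 were higher (43.8%, against 12.6%) and 4 lower (5.48%, against 11.2%), with a median of 0.46, against -0.014 for all genes. Those with the largest changes at 48 h were LAPTM5, a lysosomal membrane protein (2.33 ± 0.24, limma BH-adjusted p = 1.61e-06), and the tetraspanin TSPAN11 (2.12 ± 0.18, limma BH-adjusted p = 2.08e-07). Both were low in siCtrl cells. LAPTM5 had a mean of 0.961 eRPKM there and 6.82 in siRAD21 cells, and TSPAN11 1.63 and 8.63. LAPTM5 passed the filter only through groups where it was higher, and at such levels the size of a change depends on the pseudocount. With OHT at 48 h the list had 4 higher (5.48%, against 7.78%) and 8 lower (10.96%, against 10.1%) in siCtrl cells, with a median of -0.020 (all genes -0.013). In siRAD21 cells 4 were higher (5.48%, against 12.4%) and 19 lower (26.03%, against 16.2%), with a median of -0.14 (all genes -0.016). In siCtrl cells the largest were RRAD, a small GTPase (2.03 ± 0.15, limma BH-adjusted p = 9.04e-08), and TXNIP, the thioredoxin inhibitor (1.6004 ± 0.16, limma BH-adjusted p = 1.84e-06), both higher. RRAD too was low in siCtrl cells, with a mean of 0.819 eRPKM there and 4.95 in siCtrl OHT cells, while TXNIP had 7.83 and 24.7. Like LAPTM5, RRAD passed the filter only through groups where it was higher.

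Genes that p53 and p21 repress were read as a list of 25 cell cycle genes, all tested. In siRAD21 cells at 24 h limma called 0 of them (against 5.83% of all genes higher and 2.6% lower), as did voom. At an unadjusted p below 0.05 in limma 1 was higher and 6 were lower. At 48 h 11 fell (44%, against 11.2% of all genes, median -0.49, all genes -0.014), the kinesin gene CENPE (-1.03 ± 0.047, limma BH-adjusted p = 7.99e-10) and the phosphatase gene CDC25A (-0.90 ± 0.043, limma BH-adjusted p = 1.08e-09) most. With OHT in siCtrl cells at 48 h limma called 0 (against 7.78% of all genes higher and 10.1% lower), as did voom, with 7 higher and 3 lower at an unadjusted p below 0.05 in limma. In siRAD21 cells OHT at 48 h raised 4, CDC25A (1.16 ± 0.047, limma BH-adjusted p = 4.37e-10), AURKB, PLK4 and E2F1 (0.73 ± 0.065, limma BH-adjusted p = 4.63e-07), which is 16% against 12.4%, with a median of 0.27 (all genes -0.016). In siRAD21 OHT against siCtrl OHT cells at 48 h 1, CENPE, fell (4%, against 7.74%, median -0.23, all genes -0.0017). At an unadjusted p below 0.05 in limma, 22 of the 25 were lower there and 1 higher.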

How the data were processed

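Total RNA-seq of 18 libraries was analysed. According to the labels and methods, the authors aligned reads to hg19 with TopHat2 (2.0.8 in the submitters' processing notes), removed PCR duplicates, counted with featureCounts (1.4.5 there) and deposited eRPKM, an exonic RPKM per gene (reads scaled to exon length and library size). The study's own test needs counts, so the main test here was limma (3.58.1, R 4.3.3) with a variance trend on log2(eRPKM + 0.5), over 14993 of 23399 genes with a mean of at least 1, with Benjamini-Hochberg adjustment and the study's thresholds (adjusted p below 0.05, log2 fold change past 0.5). Tables and plots used Python 3.11.15, numpy 2.4.6, pandas 2.3.3 and matplotlib 3.10.9. Whole reads were recovered for 22040 genes (1359 more were at 0 in every library), making up 99.98 to 99.99% of 9647501 to 12678599 reads per library, each value being within 0.02 of a whole read, and served only for voom and the comparison of replicates. Intervals on reads would cover counting error alone.

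All 37 members are named, ordered by role, with library values for those called in 2 or more of the 12 comparisons within a time point and for CDKN1A, MDM2 and GDF15, and ranges for the rest. Of the pathway lists, MDM4 and at most 2 genes per comparison are given values, and 1 listed gene and 1 site are not reported here. Members and lists were chosen with earlier results of these data known. Alternatives were other pseudocounts, filters, scaling, thresholds, voom, a replicate block and leaving out each library. On data simulated for siRAD21 against siCtrl at 48 h over 14993 genes, 170 of 200 changed genes were recovered (85.0%) and 6 unchanged genes were called. These values belong to that data set alone, and recovery in the libraries themselves was not tested. Same-numbered siCtrl and siCtrl OHT libraries at 48 h had weakly correlated deviations from their group means (0.258, 0.130 and 0.157). For siRAD21 and siRAD21 OHT libraries the correlation was -0.064 at 24 h and 0.026 at 48 h. Libraries of different numbers were not compared, so these values cannot show whether the numbers mark pairs, and the reported fit used no block. Positions and exons came from GENCODE lifted to GRCh37.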

Additional observations from a re-analysis of the deposited data

Results flagged for a closer look

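GDF15 is listed because its response to siRAD21 differed with and without OHT at 48 h: the interaction was -1.16 ± 0.22, limma BH-adjusted p = 0.00271. Its per-library values are in the text above, and what underlies the difference was not tested.

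The siRAD21 effect differed between the time points for 8 genes, by a test of the difference itself (48 h minus 24 h, log2 scale, limma with BH adjustment). It was 0.96 ± 0.23 for GDF15, 0.79 ± 0.086 for ZMAT3, 0.71 ± 0.14 for ACER2 and 0.66 ± 0.11 for GADD45A. MDM2 gave 0.63 ± 0.053, ANKRA2 0.61 ± 0.17, PLK3 0.57 ± 0.15 and EDA2R 0.52 ± 0.096. RAD21 mRNA was also lower at 48 h than at 24 h in siRAD21 cells (18.1 and 18.6 eRPKM at 24 h and 11.2 and 11.3 at 48 h), and its part in these differences was not tested. No group had 4 or more libraries, so single libraries were not screened for standing apart.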

How the results depend on the processing

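The 14 counts of members past the thresholds stayed within 1.5 times of the reported count under every alternative except the stricter fold change and, for the interaction at 48 h, quantile normalization (3 members) and leaving out 1 library (1 to 2). With a log2 fold change past 1, the counts were 1 and 8 for siRAD21 at 24 h and 48 h, 0 and 2 for OHT in siCtrl cells, 1 and 1 for OHT in siRAD21 cells, 1 and 3 for siRAD21 OHT against siCtrl OHT, and 2 and 6 for siRAD21 OHT against siCtrl. They were 0 for the change of the siRAD21 effect with time and 1 for siCtrl at 48 h against 24 h. Leaving out each library gave 11 to 13 and 19 to 20 for siRAD21, 2 to 3 and 5 to 7 for OHT in siCtrl cells, 2 and 4 to 5 for OHT in siRAD21 cells, 7 to 10 and 18 for siRAD21 OHT against siCtrl OHT, 8 to 10 and 22 to 24 for siRAD21 OHT against siCtrl, 6 to 9 for the change with time and 3 to 4 for siCtrl over time. Of 9324 log2 fold changes of single members under the alternatives, 8965 kept their direction and their side of the thresholds, 64 passed the thresholds only there and 40 no longer passed them. The other 255 changed sign, all of them past the thresholds neither there nor in the reported fit.

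With the replicate number as a block the counts were 20 for siRAD21 at 48 h, 24 for siRAD21 OHT against siCtrl at 48 h and 7 for the change with time, and the other 11 equalled those reported. Crossing the siCtrl 24 h numbers, an alternative chosen after seeing the data because same-numbered 24 h libraries of the siCtrl and siCtrl OHT groups deviated oppositely (correlation -0.134), gave the same counts in the block. In this design crossing cannot move a fold change, only its standard error. The equal counts were thus largely fixed in advance and say little about robustness. Undoing the ceiling on duplicates, also chosen after seeing the data, left 5 of 14 counts equal and all within 1.5 times. The causes of these changes were not tested. Groups of 2 or 3 libraries limit what could be called, and a p that misses the threshold does not show that values were alike.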
